A study of Mus musculus with 12 samples.

Results

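Notch receptors are cleaved when a ligand on a neighbouring cell binds them. The freed intracellular part joins the DNA-binding protein RBPJ in the nucleus and, with Mastermind coactivators, turns on target genes such as those of the Hes family, Dtx1 and Nrarp. In the spleen, signalling through Notch2 is known to be needed for marginal zone B cells, the cells that line the marginal sinus and carry high CD21, the product of Cr2. The 7 genes described here are the receptors Notch1 and Notch2, the nuclear partner Rbpj, and the target genes Dtx1, Hes1, Hes5 and Nrarp, of 17132 genes tested. They were chosen by name, as every probe whose gene name in the scanner files was one of these symbols or an older one (Rbpj is listed as Rbpsuh), which gave 10 of 41174 probes. Where a gene had several probes, the brightest was used.

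The arrays measured RNA of B cells from the spleens of C57BL/6 mice in which Ebf1, a transcription factor of the B lineage, could be deleted. The LPS-stimulated cells came from Ebf1 fl/fl RERT-Cre mice, with both Ebf1 alleles floxed, and from Ebf1 +/fl RERT-Cre heterozygote controls, with 1 floxed allele, and the resting cells came from the same 2 genotypes. Each of these 4 groups had 3 arrays, on 3 slides of 4 arrays. LPS is a bacterial ligand of the receptor TLR4 that activates B cells, and the labels give neither its dose nor its time. RERT-Cre is a Cre recombinase fused to an oestrogen receptor and is active after tamoxifen, so all animals of all 4 groups carried it and were given 3 mg tamoxifen citrate on each of 4 days before they were killed on day 10. The controls therefore could also lose 1 Ebf1 allele. Sorting used B220+AA4.1- cells or, in another gate, only those of them with low CD21, and the labels do not tie gates to samples, so a gate cannot be told apart from a genotype for any gene that differs between CD21-high and CD21-low cells. The labels speak of triplicates and do not say that they came from different animals, so the spread behind each p-value is that between these samples and may be technical.

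All values below are log2 of the signal over the 75th percentile of its array, and differences are on the same log2 scale. One array stood apart: LPS fl/fl replicate 2 had 83.2% of its spots well above background, while the other 11 arrays had 54.4% to 61.4%. The 8 B cell markers, Cd79a among them, were above background on all arrays, and 2 of the 8, Cd79a (difference -0.75) among them, were lower in resting fl/fl cells, with a median of -0.45 over the list and 4.19% of all genes lower. Of the 2 Ebf1 probes, that for NM_007897 read 1.85, 1.70 and 1.74 in resting fl/fl cells and 0.78, 1.42 and 1.22 in resting +/fl cells (difference 0.62, limma adjusted p 0.0384 over all probes). The Ebf1 probe for AK036716 read -4.18, -4.22 and -4.99 in resting fl/fl cells and -2.41, -2.15 and -3.13 in resting +/fl cells (difference -1.90, limma adjusted p 0.0432). The 2 probes differ in direction, and neither checks the deletion, since the sources used here do not say which part of Ebf1 is floxed. Because these are bulk samples, fewer cells of a type and less RNA per cell cannot be told apart.

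Promoter sequence was looked up in RefSeq (GRCm38.p6, 250 bases before to 50 bases after the start site). Windows were found for 6 of the 7 genes, Notch1, Notch2, Dtx1, Hes5, Nrarp and Rbpj (2 start sites), and not for Hes1. They were searched on both strands for TGGGAA, the core that RBPJ binds, and for its longer form GTGGGAA, which contains the core. The windows with 2 matches to the core are shown because Hes5 is a target that differed between the genotypes in resting cells and Rbpj is the factor itself. Capitals mark the matches to TGGGAA or to its reverse complement TTCCCA. The annotated genes begin before these windows, at 154960626 for Hes5 and at 53555779 for Rbpj, and start sites further upstream, if any, were not searched. Hes5 lies on the plus strand at chr4:154960673-154960972 and Rbpj on the plus strand at chr5:53590096-53590395.
Hes5: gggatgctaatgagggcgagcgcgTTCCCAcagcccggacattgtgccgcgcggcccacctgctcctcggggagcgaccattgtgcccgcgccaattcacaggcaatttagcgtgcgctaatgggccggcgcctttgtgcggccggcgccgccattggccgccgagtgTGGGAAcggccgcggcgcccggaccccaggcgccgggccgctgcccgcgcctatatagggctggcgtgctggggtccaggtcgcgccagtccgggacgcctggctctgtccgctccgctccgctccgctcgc
Rbpj: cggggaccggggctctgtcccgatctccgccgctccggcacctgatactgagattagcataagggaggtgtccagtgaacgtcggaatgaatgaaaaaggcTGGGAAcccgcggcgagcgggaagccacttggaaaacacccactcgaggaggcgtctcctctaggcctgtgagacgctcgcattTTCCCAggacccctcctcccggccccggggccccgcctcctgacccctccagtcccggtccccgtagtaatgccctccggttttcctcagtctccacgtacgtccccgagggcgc

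Both Hes5 matches were of the longer form, at -226 (reverse strand) and -82 (forward strand, the longer form from -83) from the start site. Of 32851 promoter windows 6.38% held the longer form and 0.256% held it 2 times or more, while 25.6% held the core and 3.79% held it 2 times or more. The Rbpj matches were the core alone, at -149 and -65, and the window of the other Rbpj start site held 1 of them. The windows of Notch1, Notch2, Dtx1 and Nrarp held no match, which says only that these letters are not in these windows. The palindrome CCCNNGGG, the core that EBF1 binds, was in 13.7% of windows, and the Notch2 and Dtx1 windows held 1 match each and both Rbpj windows 2. A match is a description of the sequence and no evidence of binding.

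In resting cells, 3 target genes, Dtx1, Hes1 and Hes5, were lower in fl/fl than in +/fl cells, and the receptor Notch2 was higher. Notch1, Nrarp and Rbpj did not pass the test. So 4 of the 7 genes passed an adjusted p of 0.05, against 8.83% of all genes tested (4.64% higher and 4.19% lower). In 6 of the 7, all but Notch1, the 3 fl/fl values did not overlap the 3 +/fl values, against 31.2% of all genes. The median difference was -1.12 over the 7 genes and 0.05 over all genes. All tests are limma's moderated test on all 12 arrays, with Benjamini-Hochberg adjustment over the 17132 genes.

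**Figure D1:**
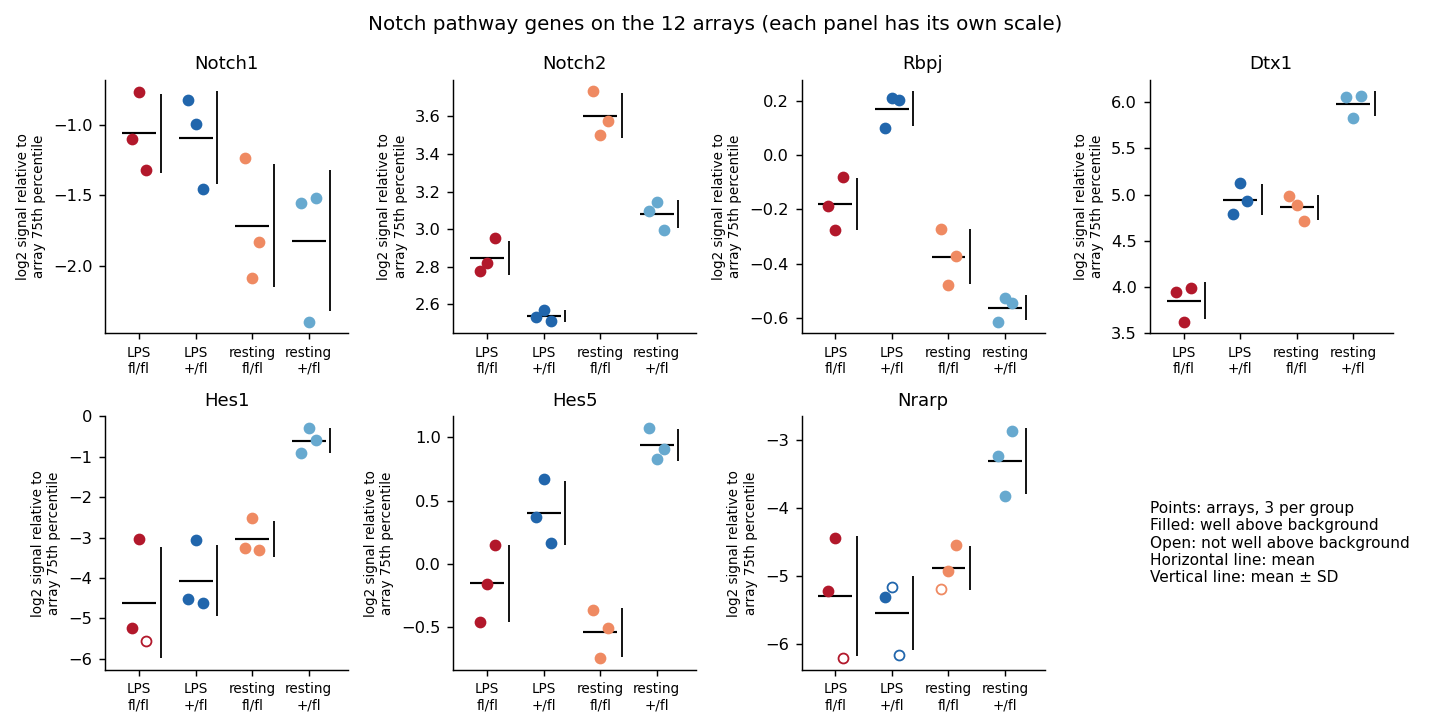
Signal over the array's 75th percentile (log2) for the 7 Notch pathway genes on each of the 12 arrays, 3 per group, with the mean and standard deviation of each group (vertical line). Filled points were well above background and open points were not. Dtx1, Hes1, Hes5 and Nrarp each have their highest 3 points in resting +/fl cells, and Notch2 has its highest 3 in resting fl/fl cells.

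Dtx1 encodes Deltex, a ubiquitin ligase that binds Notch and is itself a Notch target in lymphocytes (probe for NM_008052, mm7 chr5:119914255-119914314). It read 4.99, 4.88 and 4.71 in resting fl/fl cells, against 6.06, 5.83 and 6.07 in resting +/fl cells. Every fl/fl array was below every +/fl array. Dtx1 was 2.18-fold lower in fl/fl cells (difference -1.12, standard error 0.14, n = 3 and 3, limma adjusted p 0.00405). Within slides 1, 2 and 3, with 1 array of each genotype on each, the difference was -0.84, -1.18 and -1.36. After LPS, Dtx1 read 3.94, 3.62 and 3.99 in fl/fl cells and 4.79, 5.12 and 4.93 in +/fl cells, again without overlap. It was 2.14-fold lower in LPS fl/fl cells (difference -1.10, standard error 0.14, n = 3 and 3, limma adjusted p 0.0133), so that the genotype difference was nearly the same size with and without LPS (interaction 0.03, 95% interval -0.41 to 0.47, limma adjusted p 0.951). The call after LPS was lost without LPS +/fl replicate 3 (limma adjusted p 0.0604) and with slide as a block (limma adjusted p 0.101, difference -1.01). Only slide 2 held both LPS genotypes, and there the difference was -0.80. LPS itself lowered Dtx1 2.02-fold in fl/fl cells (difference -1.01, limma adjusted p 0.000153) and 2.06-fold in +/fl cells (difference -1.04, limma adjusted p 0.000115). The group means ran, from the highest, resting +/fl, LPS +/fl, resting fl/fl, LPS fl/fl, and the values of LPS +/fl and resting fl/fl cells overlapped.

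Hes5 encodes a basic helix-loop-helix repressor that Notch induces (probe for NM_010419, mm7 chr4:153951780-153951839). Its values were -0.36, -0.74 and -0.51 in resting fl/fl cells and 1.07, 0.83 and 0.91 in resting +/fl cells. All fl/fl arrays lay below 0 and all +/fl arrays above 0. Hes5 was 2.78-fold lower in fl/fl cells (difference -1.47, standard error 0.18, n = 3 and 3, limma adjusted p 0.00408). The difference was -1.19, -1.82 and -1.41 within slides 1, 2 and 3. After LPS, Hes5 read -0.46, -0.15 and 0.15 in fl/fl cells and 0.37, 0.67 and 0.16 in +/fl cells. The groups touched without overlapping, and the difference of -0.55 did not pass the test (limma adjusted p 0.137). LPS lowered Hes5 in +/fl cells by 1.45-fold (difference -0.53, standard error 0.18, limma adjusted p 0.0300), a call that was lost without resting +/fl replicate 1 or 3 or without LPS +/fl replicate 1 or 3 (limma adjusted p 0.0590 to 0.111). In fl/fl cells the LPS difference was 0.38 (limma adjusted p 0.104), and 0.54 without LPS fl/fl replicate 1 (limma adjusted p 0.0384). The difference between the 2 LPS responses was 0.92 (unadjusted p 0.00564, limma adjusted p 0.121), which did not pass the test.

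Hes1 encodes a repressor of the same family and is the best known Notch target (probe for NM_008235, mm7 chr16:29738743-29739038). It read -3.26, -2.53 and -3.32 in resting fl/fl cells, against -0.91, -0.29 and -0.59 in resting +/fl cells. No fl/fl array reached the lowest +/fl array. Hes1 was 5.41-fold lower in fl/fl cells (difference -2.44, standard error 0.64, n = 3 and 3, limma adjusted p 0.0446). The within-slide differences were -2.97, -1.61 and -2.73. The call was near the threshold: it was lost without any single one of the 6 resting arrays, without LPS fl/fl replicate 1 and without LPS +/fl replicate 1 or 3 (limma adjusted p 0.0592 to 0.132), while the difference stayed between -2.69 and -2.28. After LPS, Hes1 read -5.23, -3.03 and -5.57 in fl/fl cells and -4.52, -3.06 and -4.62 in +/fl cells, and it was well above background on 2 of the 3 fl/fl arrays and on all 3 +/fl arrays. Replicate 2 was the highest in both groups and the groups overlapped (difference -0.54, limma adjusted p 0.638). LPS lowered Hes1 11.1-fold in +/fl cells (difference -3.47, standard error 0.64, limma adjusted p 0.000969). In fl/fl cells the LPS difference was -1.58 (limma adjusted p 0.0594) and did not pass the test, but without LPS fl/fl replicate 2, the array that stood apart, it was -2.37 (limma adjusted p 0.00194). It was also past the threshold without LPS +/fl replicate 2 (limma adjusted p 0.0458). The difference between the LPS responses was 1.89 (95% interval -0.13 to 3.91, limma adjusted p 0.269).

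Nrarp encodes a small ankyrin repeat protein that Notch induces and that dampens Notch signalling (probe for NM_025980, mm7 chr2:25189829-25189888). It read -5.19, -4.92 and -4.55 in resting fl/fl cells and -3.22, -3.83 and -2.86 in resting +/fl cells. It was dim throughout: it was well above background on 2 of 3 resting fl/fl, 3 of 3 resting +/fl, 2 of 3 LPS fl/fl and 1 of 3 LPS +/fl arrays. The resting groups did not overlap, but the difference of -1.58 (standard error 0.45) did not pass the test (limma adjusted p 0.0562), and it passed without LPS fl/fl replicate 2 or 3 (limma adjusted p 0.0342 and 0.0369) and with slide as a fixed block (limma adjusted p 0.0378). Within slides 1, 2 and 3 it was -1.36, -1.70 and -1.69. After LPS the values were -5.22, -4.44 and -6.21 in fl/fl cells and -5.31, -5.16 and -6.17 in +/fl cells, which overlapped (difference 0.26, limma adjusted p 0.758). LPS lowered Nrarp in +/fl cells (difference -2.24, standard error 0.45, limma adjusted p 0.00157), a size that rests on LPS values of which 1 of 3 was well above background, and the LPS difference in fl/fl cells was -0.40 (limma adjusted p 0.475). The 2 responses differed by 1.84 (unadjusted p 0.0157, limma adjusted p 0.161), short of the threshold.

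Among the receptors, Notch2 is the one that marginal zone B cells depend on (brightest probe for BC059256, mm7 chr3:98021215-98021274). It read 3.73, 3.50 and 3.58 in resting fl/fl cells and 3.1, 3.14 and 3.00 in resting +/fl cells. Each fl/fl array was above each +/fl array, the opposite direction from the target genes. Notch2 was 1.44-fold higher in fl/fl cells (difference 0.53, standard error 0.10, n = 3 and 3, limma adjusted p 0.0140), with 0.59, 0.41 and 0.58 within slides 1, 2 and 3. After LPS it read 2.77, 2.82 and 2.95 in fl/fl cells and 2.53, 2.57 and 2.51 in +/fl cells. These groups did not overlap either, but the difference of 0.31 did not pass the test (limma adjusted p 0.119), and it was -0.21 when arrays were scaled by their median. LPS lowered Notch2 1.69-fold in fl/fl cells (difference -0.76, limma adjusted p 8.28e-05) and 1.45-fold in +/fl cells (difference -0.54, limma adjusted p 0.000739). From the highest, the group means ran resting fl/fl, then resting +/fl, then LPS fl/fl, then LPS +/fl, with no overlap between neighbours.

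Notch2 has 3 probes, which did not give the same size of difference. A second probe for BC059256 (mm7 chr3:98020144-98020203) read 0.07, -0.07 and -0.01 in resting fl/fl cells and -1.0, -0.70 and -0.88 in resting +/fl cells. The difference there was 0.86 (standard error 0.17, limma adjusted p 0.0222 over 25675 probes), against 0.53 (limma adjusted p 0.0183 over the same probes) at the brightest. The probe for NM_010928 (mm7 chr3:98018506-98018565) read -3.07, -2.65 and -2.92 in resting fl/fl cells and -3.12, -2.97 and -2.93 in resting +/fl cells, which overlapped (difference 0.13, limma adjusted p 0.804). For the LPS response of +/fl cells, the second BC059256 probe gave -0.15 (limma adjusted p 0.490) and the NM_010928 probe -0.35 (limma adjusted p 0.287), so the call at the brightest probe was not shared by the others. In fl/fl cells the second probe gave -0.86 (limma adjusted p 0.00186) and the NM_010928 probe -0.41 (limma adjusted p 0.228).

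**Figure D2:**
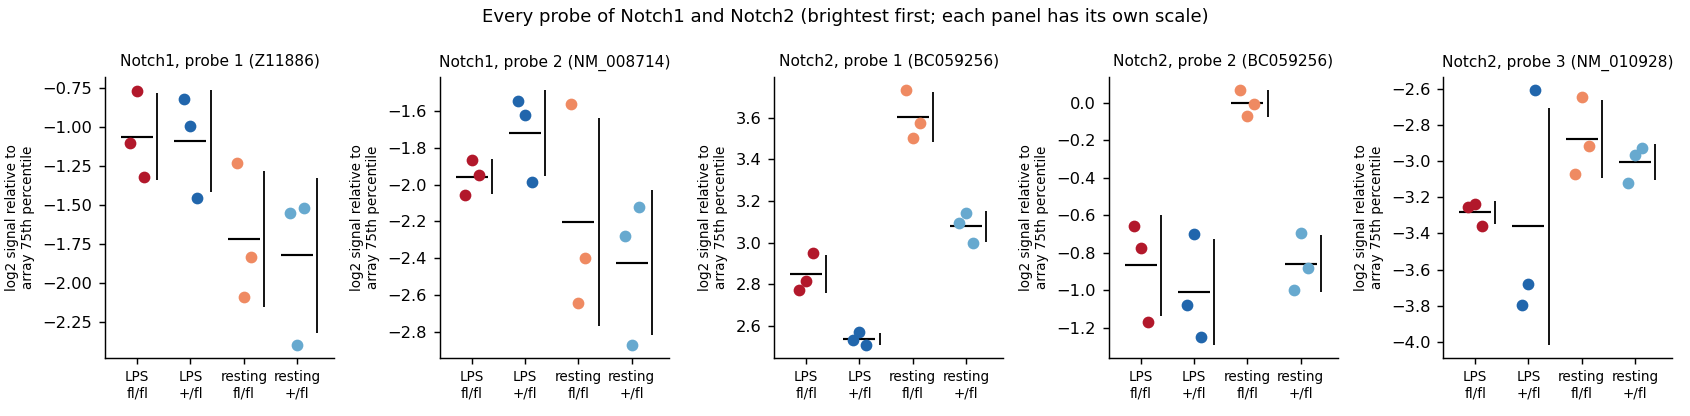
Signal over the array's 75th percentile (log2) at both Notch1 probes and all 3 Notch2 probes, by group, with the mean and standard deviation; each panel has its own scale, and levels of different probes are not comparable. At Notch2 probes 1 and 2 the 3 resting fl/fl points lie above the 3 resting +/fl points, and at probe 3 they overlap.

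Notch1, the receptor better known for its part in T cell development, was read from the probe for Z11886, which is spotted 10 times (mm7 chr2:26466563-26466621). Its values were -1.23, -2.08 and -1.83 in resting fl/fl cells and -1.55, -2.39 and -1.52 in resting +/fl cells. The groups overlapped (difference 0.11, limma adjusted p 0.863). After LPS it read -1.10, -0.76 and -1.32 in fl/fl cells and -0.82, -0.99 and -1.45 in +/fl cells (difference 0.03, limma adjusted p 0.964). The 95% intervals, -0.57 to 0.78 in resting cells and -0.64 to 0.70 after LPS, do not exclude differences of the size seen for Notch2. The LPS difference was 0.65 in fl/fl cells (limma adjusted p 0.0905) and 0.73 in +/fl cells (limma adjusted p 0.0602), neither past the threshold. Both passed it without resting fl/fl replicate 1 (limma adjusted p 0.0350 and 0.0447), and the second also without LPS +/fl replicate 3 (limma adjusted p 0.0418). The other Notch1 probe, for NM_008714, gave 0.22 in resting cells and -0.24 after LPS between the genotypes (limma adjusted p 0.655 and 0.654 over all probes). Its LPS difference was 0.25 in fl/fl cells and 0.70 in +/fl cells (limma adjusted p 0.490 and 0.0536 over all probes).

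Rbpj encodes the DNA-binding protein through which all Notch receptors act (probe for NM_009035, mm7 chr5:53029194-53029253). It read -0.27, -0.48 and -0.37 in resting fl/fl cells and -0.61, -0.53 and -0.55 in resting +/fl cells. The fl/fl arrays were above the +/fl arrays, by 0.19 on average (limma adjusted p 0.223). After LPS the order was turned, with -0.19, -0.28 and -0.08 in fl/fl cells and 0.10, 0.21 and 0.20 in +/fl cells (difference -0.35, limma adjusted p 0.0862). Neither difference passed the test, nor did the difference between them (-0.54, 95% interval -0.83 to -0.24, unadjusted p 0.00230, limma adjusted p 0.0973). LPS raised Rbpj 1.66-fold in +/fl cells (difference 0.73, standard error 0.09, limma adjusted p 8.01e-05), with 0.73 and 0.71 within slides 1 and 2. In fl/fl cells the LPS difference was 0.19 (limma adjusted p 0.106), and it was -0.11 with arrays scaled by their median.

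Across the 7 genes, then, 1 of 7 passed the test between the genotypes after LPS, namely Dtx1, against 1.62% of all genes (0.858% higher and 0.765% lower). Values of the 2 LPS genotypes did not overlap for 4 of the 7, Notch2, Dtx1, Hes5 and Rbpj, against 33.2% of all genes. LPS lowered 2 of the 7 and raised none in fl/fl cells, against 55.6% of all genes called (30.2% higher and 25.4% lower). It lowered 5 and raised 1 in +/fl cells, against 57.7% of all genes (30.7% higher and 27% lower). The 2 LPS comparisons have no arrays in common, but each shares its resting arrays with the resting genotype comparison. No member passed limma's test of the interaction, where 0.163% of all genes were called. An unadjusted p under 0.05 was found for 3 of the 7, Hes5, Nrarp and Rbpj, against 20.3% of all genes. Within slides, the LPS difference of fl/fl cells on slides 2 and 3 was -0.90 and -0.93 for Dtx1, -0.55 and -0.78 for Notch2, and -3.04 and -0.81 for Hes1. That of +/fl cells on slides 1 and 2 was -0.80 and -1.27 for Dtx1, -3.55 and -3.60 for Hes1, -0.41 and -0.70 for Hes5, -1.84 and -2.09 for Nrarp, and -0.60 and -0.56 for Notch2.

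**Figure D3:**
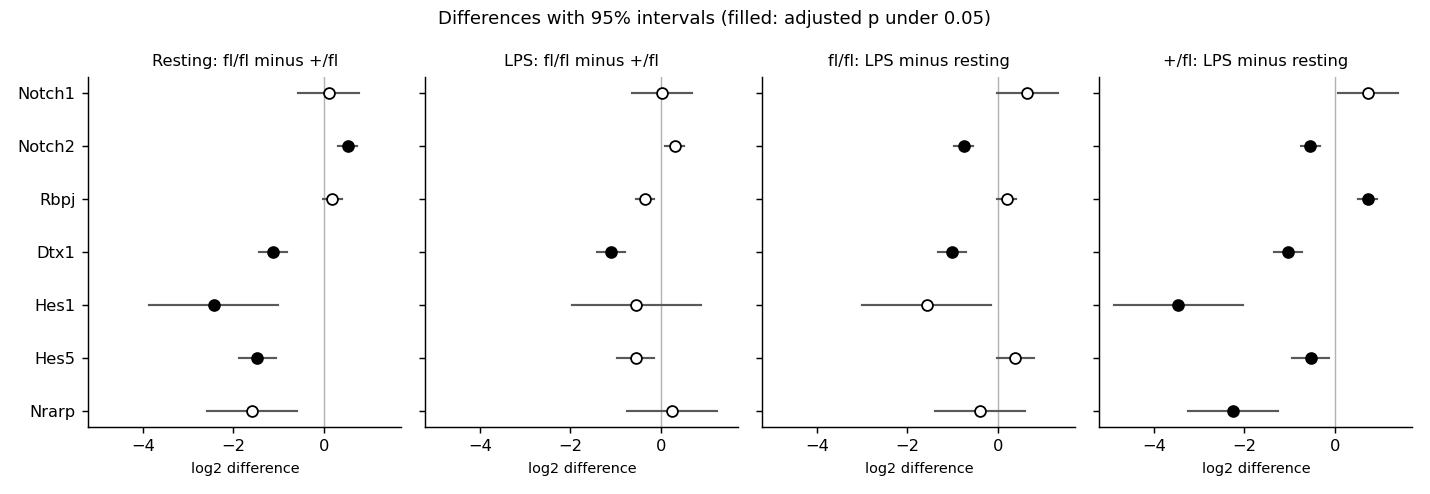
Differences of the 7 genes (log2) with 95% intervals in 4 comparisons; filled points passed an adjusted p of 0.05. Dtx1 is filled and left of 0 in all 4 panels, Notch2 is right of 0 between genotypes and left of 0 for LPS, and the intervals of Hes1 and Nrarp are the widest.

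Markers of B cell subsets differed between the resting genotypes. The summed signals of other cell types, given below, overlapped between the resting genotypes, except for the stromal and endothelial list. The median differences over these lists were nevertheless all below 0 in resting fl/fl cells. They were -1.17 for monocyte, macrophage and neutrophil, -0.99 for erythroid, -0.47 for stromal and endothelial, -0.41 for T cell and -0.41 for dendritic cell markers. Of 8 marginal zone markers, 5 were lower in resting fl/fl cells (Cr2, S1pr3, Asb2, Mzb1 and Dph5) and none higher. Of all genes 4.19% were lower and 4.64% higher. All 8 were above background in every group. The summed signal of these 8 markers, in units of the array's 75th percentile, was 31.9 to 41.5 on resting fl/fl arrays and 83.2 to 98.4 on resting +/fl arrays. After LPS it was 28.1 to 35.6 on fl/fl arrays and 57.7 to 63.0 on +/fl arrays, with 3 of 8 lower, against 0.765% of all genes. Of 5 follicular markers 2 were higher in resting fl/fl cells, Itgb7 among them, against 4.64% of all genes. The summed signal of the 5 was 248 to 270.1 on resting fl/fl arrays and 158 to 197 on resting +/fl arrays. The part of cell makeup in the differences of the Notch genes was not tested, and it cannot be told apart from the gate.

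Of 14 monocyte, macrophage and neutrophil markers on the array 13 were tested and 1, Adgre1, was lower in resting fl/fl cells, against 4.19% of all genes. Elane was above background on no array of either resting genotype, and Cx3cr1 on none of resting fl/fl. The summed signal of the 13 tested was 14.2 to 20.9 on resting fl/fl arrays and 18.8 to 127.7 on resting +/fl arrays. The 11 T cell markers gave no call and summed to 20.8 to 23.3 on resting fl/fl arrays and 20.8 to 49.4 on resting +/fl arrays. The 6 erythroid markers tested gave no call either, with sums of 7.95 to 98.3 on resting fl/fl arrays and 34.0 to 72.5 on resting +/fl arrays. Of 7 dendritic cell markers 1, Flt3, was lower in resting fl/fl cells, against 4.19% of all genes. Their sums were 3.65 to 4.36 on fl/fl arrays and 4.10 to 5.36 on +/fl arrays. Of 4 stromal and endothelial markers tested 1, Pecam1, was lower, against 4.19% of all genes. The sums over these 4 did not overlap, at 1.85 to 2.37 on fl/fl arrays and 2.93 to 3.54 on +/fl arrays. Col1a1, Col3a1 and Pdgfra were above background on none of these resting arrays and are not in the sums. After LPS the sums were 22.3 to 79.7 on fl/fl arrays and 13.8 to 94.6 on +/fl arrays for the monocyte, macrophage and neutrophil list. For T cell markers they were 15.5 to 19.0 on LPS fl/fl arrays and 11 to 12.7 on LPS +/fl arrays, without overlap. The dendritic list summed to 1.92 to 2.27 on LPS fl/fl and 1.59 to 1.68 on LPS +/fl arrays, also without overlap, and the erythroid list to 4.84 to 11 on LPS fl/fl and 7.73 to 33.7 on LPS +/fl arrays. The part of these cell types in the Notch gene differences was not tested. By the median over each list, resting +/fl replicates 1 and 3 read high in myeloid markers (1.69 and 1.06 above the mean over the 12 arrays) and replicate 2 did not (-0.10, against 0.08, -0.30 and 0.13 in resting fl/fl cells). With replicates 1 and 3 left out together, a choice made after the data were seen, the resting genotype difference was -2.75 for Hes1, -1.37 for Hes5, -0.97 for Dtx1, -1.06 for Nrarp and 0.46 for Notch2, with 1 +/fl array left, taken to vary like the other groups, and no member past the threshold (limma adjusted p 0.0906 to 0.480 over these 5).

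**Figure D4:**
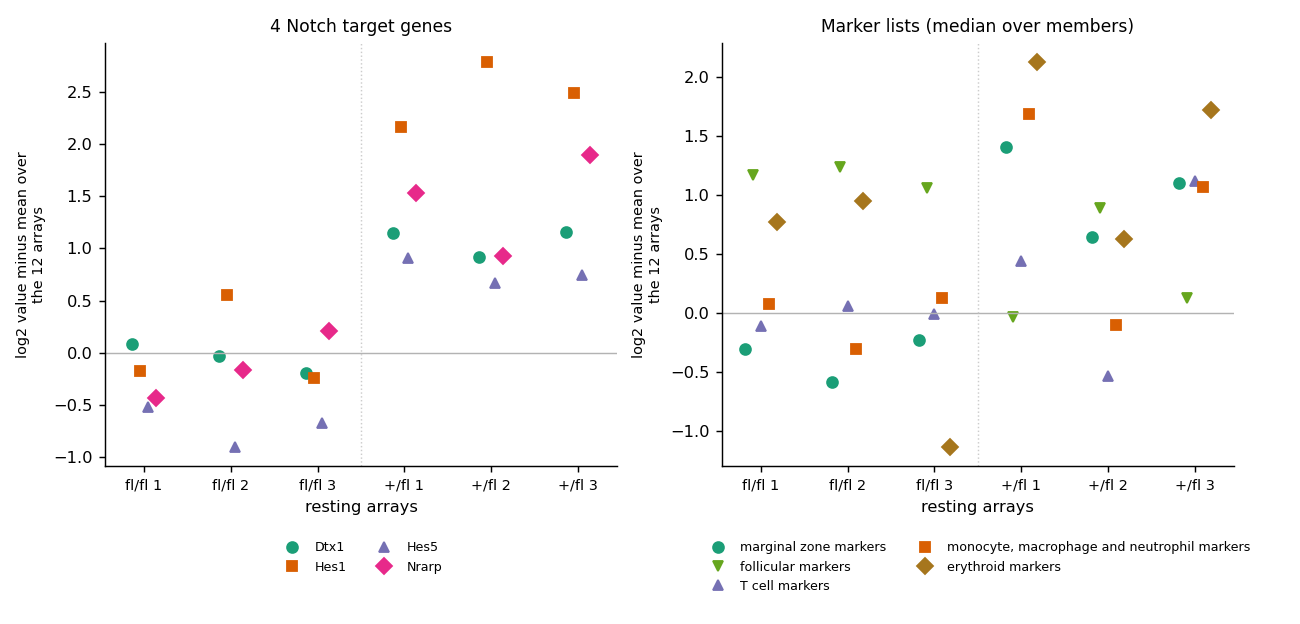
The 6 resting arrays, fl/fl left of +/fl. Left, log2 values of Dtx1, Hes1, Hes5 and Nrarp minus the gene's mean over the 12 arrays; right, the median of the same quantity over 5 marker lists. The 4 target genes are higher on each +/fl array than on each fl/fl array; the marker medians vary among the +/fl arrays, and on +/fl replicate 2 they are 0.64 (marginal zone), 0.89 (follicular), 0.63 (erythroid), -0.10 (myeloid) and -0.54 (T cell).

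The other genes of the pathway were listed by name, 56 in all, of which 55 were on the array and 50 were tested (Dll3, Jag2, Maml3, Hey2 and Hes7 did not pass the filter on dim probes and Dtx3l was not matched on the array). In resting cells 4 of the 50 were higher and 2 lower in fl/fl cells, against 4.64% higher and 4.19% lower of all genes, so the counts lie near the share over all genes. The median difference was 0.14 against 0.05 over all genes. Higher were Lfng, the Fringe glycosyltransferase that adds sugars to Notch, Ep300 and Maml1, which are coactivators of the nuclear complex, and Ncor1, a corepressor. Lower were Cr2 and Myc, both known targets of Notch. Genes of Notch cleavage (9) and of trafficking and turnover (10 tested) gave no call, nor did the other receptors and the ligands (5 tested).

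Lfng read -1.45, -1.01 and -1.29 in resting fl/fl cells and -2.32, -2.04 and -2.02 in resting +/fl cells, without overlap (difference 0.88, standard error 0.13, limma adjusted p 0.00805). Ep300 read 0.79, 0.45 and 0.15 in resting fl/fl cells and -0.53, -0.53 and -0.33 in resting +/fl cells (difference 0.93, standard error 0.16, limma adjusted p 0.0121). Both genes were thus higher on every fl/fl array. Maml1 differed by 0.44 (limma adjusted p 0.0333) and Ncor1 by 0.45 (limma adjusted p 0.0400), also without overlap. The Maml1 call was lost without any of 8 single arrays (all but resting fl/fl 3, LPS fl/fl 2 and 3 and LPS +/fl 2; limma adjusted p 0.0512 to 0.0964). The Ncor1 call was lost without any of 9 single arrays (all but replicate 2 of resting fl/fl, of resting +/fl and of LPS fl/fl cells; limma adjusted p 0.0570 to 0.114). The Ep300 and Ncor1 calls were lost when each gene's probes were averaged (differences 0.42 and 0.64, limma adjusted p 0.104 and 0.0557).

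Cr2 read 1.75, 1.62 and 1.57 in resting fl/fl cells and 4.21, 3.98 and 4.14 in resting +/fl cells (difference -2.46, standard error 0.12, limma adjusted p 2.86e-05). It is the gene whose product one of the gates selects on, and also a marginal zone marker. After LPS it read -0.06, -0.21 and 0.03 in fl/fl cells and 1.69, 1.95 and 2.07 in +/fl cells (difference -1.98, limma adjusted p 0.000418), the 1 call among the 50 other pathway genes in that comparison. Myc, a growth regulator with many inputs besides Notch, read 2.75, 2.24 and 2.24 in resting fl/fl cells and 3.14, 3.31 and 3.45 in resting +/fl cells (difference -0.89, standard error 0.17, limma adjusted p 0.0168). That call was lost without resting +/fl replicate 3 (limma adjusted p 0.0521). After LPS the Myc difference was -0.37 (limma adjusted p 0.246).

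**Figure D5:**
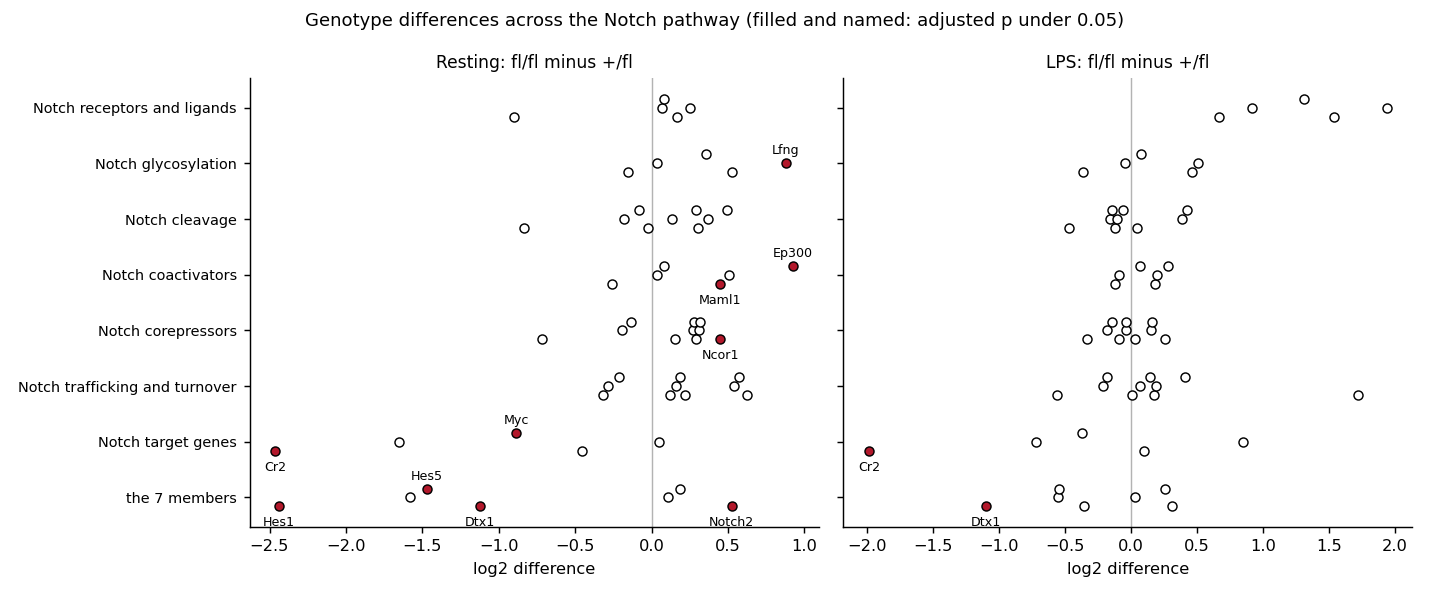
Log2 differences between fl/fl and +/fl cells, resting (left) and after LPS (right), for the tested genes of 7 groups of the Notch pathway and for the 7 genes described here; filled, named points passed an adjusted p of 0.05. In resting cells the filled points of the target genes lie left of 0 and those of Lfng, Ep300, Maml1, Ncor1 and Notch2 right of 0, and after LPS only Cr2 and Dtx1 are filled.

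After LPS the 5 tested receptors and ligands outside the 7 genes, Notch3, Notch4, Dll1, Dll4 and Jag1, all had positive differences between fl/fl and +/fl cells, from 0.66 to 1.94, and none passed the test. Without LPS fl/fl replicate 2 they were 0.33 to 1.94, with Dll4 at 0.57 against 1.31 with all arrays and Jag1 at 0.61 against 1.54. Jag1 was above background on 3 and Dll4 on 5 of the 12 arrays. Median differences of marker lists in the same comparison went both ways. They were 1.22 for 4 stromal and endothelial, 0.75 for 13 monocyte, macrophage and neutrophil, 0.59 for 11 T cell and 0.27 for 7 dendritic cell markers. Of the dendritic cell markers 1, Siglech, was called higher, against 0.858% of all genes. The medians were -0.65 for 6 erythroid, -0.81 for 8 marginal zone and -0.32 for 8 B cell markers, and 0.17 for 5 follicular markers. The summed signal of the 4 stromal and endothelial markers tested was 1.81 to 2.14 on LPS fl/fl arrays and 1.02 to 1.2 on LPS +/fl arrays. On none of the LPS +/fl arrays were Cdh5, Col1a1, Col3a1, Madcam1 and Pdgfra above background. The part of these cell types in the receptor and ligand values was not tested.

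In the LPS responses 9 of these 50 genes rose and 18 fell in fl/fl cells, against 30.2% higher and 25.4% lower of all genes. In +/fl cells 13 rose and 16 fell, against 30.7% higher and 27% lower. Both counts of rises include Heyl, which passed the filter on dim probes only through the LPS arrays. Called in either direction, the shares in the pathway were near those over all genes (55.6% in fl/fl and 57.7% in +/fl cells). In both genotypes more of the 50 fell than rose. Over all genes more rose than fell, but this depended on the processing. With quantile normalization 4504 genes were called higher and 5000 lower for LPS in fl/fl cells. The split of the 50 is therefore not read as a trait of the pathway. Kat2b, an acetyltransferase that serves as a coactivator, fell by 2.45 in fl/fl cells and by 2.56 in +/fl cells (limma adjusted p 3.99e-07 and 2.61e-07). It read -2.42, -2.60 and -2.27 in LPS fl/fl cells against 0.01, 0.19 and -0.15 in resting fl/fl cells, with no overlap. Hes6, a Hes family member that opposes Hes1 in other tissues, fell by 1.66 in fl/fl cells and by 1.71 in +/fl cells (limma adjusted p 2.91e-06 and 2.15e-06). Cr2 fell by 1.73 in fl/fl cells and by 2.20 in +/fl cells (limma adjusted p 1.74e-06 and 3.55e-07). Myc rose by 3.37 in fl/fl cells and by 2.85 in +/fl cells (limma adjusted p 2.37e-07 and 4.98e-07). Poglut1, which adds glucose to the Notch extracellular repeats, rose by 1.32 and 1.40 in the 2 genotypes (limma adjusted p 2.73e-06 and 1.71e-06). Dtx4, a relative of Dtx1, rose by 1.85 in fl/fl cells and by 2.13 in +/fl cells (limma adjusted p 1.01e-05 and 3.58e-06), the opposite direction from Dtx1. Heyl, a repressor related to the Hes family, was above background on none of the 6 resting arrays and on all 6 LPS arrays. On the reported signal it was at least 4.91-fold higher after LPS in fl/fl cells and at least 2.77-fold higher in +/fl cells. These bounds set the dim group at the lowest signal that counted as above background on each array. Heyl passed the filter on dim probes only through the LPS arrays, so no test of its LPS response is given. With normexp, another background correction, its LPS difference in fl/fl cells was -0.34.

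For each of 6 genes, the 3 genes with the most similar profile over the 12 arrays were found, by the root mean square of the differences after each gene's mean was removed. Notch1 was left out because it passed none of the 4 pairwise tests. Notch2 was near to Peli1 (0.0705) and Galnt4 (0.0897), and its own spread about the mean was 0.395. Dtx1 was nearest to Ift140 (0.186), which differed by -1.16 in resting cells and by -1.02 after LPS, then to Amz1 (0.271) and H2ac13 (0.317). For Hes5 they were Chaf1b (0.239), Rundc3b (0.255) and a probe the file names ENSMUST00000057926 (0.262), and for Rbpj they were Cep83 (0.0727), Dnajc30 (0.0728) and Cox19 (0.0729). The own spreads of Dtx1, Hes5 and Rbpj were 0.768, 0.588 and 0.279. Hes1 was nearest to C5ar2 (0.615), with an own spread of 1.69, and Nrarp to Tedc1 (0.383), with an own spread of 0.999.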

How the data were processed

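The deposited scanner files of 12 Agilent 1-colour arrays hold intensity values, and the background-subtracted Cy3 signal, computed by the authors with Feature Extraction 9.5.3.1 per the file headers (the submitters' processing notes name 9.1), was used. Probe positions are on the mm7 build, per the file headers. A deposited table of values for all arrays, also intensity, matched 41174 of its 41250 lines to probes and had the same sorted values in every column (median 30.8), so it was quantile normalized, with details not given in the sources used here. Its scale is linear, with Spearman correlations of 0.9999 to 1.000 with the scanner signal, and it was used as an alternative.

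Spots marked as outliers were left out, which removed 87 probes, replicate spots were averaged, and the values are log2 of the signal over its array's 75th percentile, computed here from the deposited intensity. Probes were kept if well above background on 3 or more of the 12 arrays (25675 probes of 17132 genes). Median signals were 19.0 to 93.0 per array, and the number of arrays limits the precision. A model of the 4 group means was fitted with limma (version 3.58.1, R 4.3.3, data.table version 1.17.8) to the 12 arrays, and 5 contrasts were tested, with p-values adjusted over all genes by Benjamini-Hochberg and called under 0.05 (prior degrees of freedom 1.79). The fit was run on simulated data with known changes and independent noise. That simulation had no slide effect and no array that stood apart, so it does not check those features. Promoters and figures used Python 3.11.15, pandas 2.3.3 and matplotlib 3.10.9. The genes and lists were chosen with earlier results of these data known.

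Named genes were set by a rule: all 7 Notch genes with all their probes, every other listed pathway gene past the threshold between genotypes, the 6 with the smallest p in each LPS response, and, for each of the 7 past the threshold in a pairwise comparison, the 3 genes nearest in profile. Some genes are not reported here. The 5 receptors and ligands after LPS and the marker genes named singly were chosen after their values were seen. Slides were taken from the files as a batch, each with 4 arrays. Alternatives tried were normexp background correction with an offset of 50, quantile and median scaling, filters, the deposited values, slide and replicate blocks, fewer arrays, other variance models, array weights, probe rules and leaving out each array. A repaired normexp (high local background set to the array's median background) and leaving out resting +/fl replicates 1 and 3 together were added after the data were seen.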

Additional observations from a re-analysis of the deposited data

How the results depend on the processing

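The signs of the differences of Dtx1, Hes1, Hes5 and Nrarp (lower) and of Notch2 and Rbpj (higher) in resting fl/fl cells were kept under all 29 or 30 alternatives tried, but their calls were not. The number of the 7 genes past the threshold was 4 in the resting genotype comparison, 1 after LPS, 2 and 6 for LPS in fl/fl and +/fl cells, and 0 in the interaction. Leaving out each array in turn gave 3 to 5, 0 to 1, 2 to 3, 5 to 7 and 0 to 0. Normexp gave 0 in each of the first 4 comparisons. Its repaired form gave 4 for LPS in fl/fl cells, and array weights gave 5 there and 4 for the LPS genotypes. In resting cells 2 genes passed without the filter on dim probes, at an adjusted p of 0.01, and without the 2 +/fl arrays that have the same number in their names, and 0 passed without resting +/fl replicates 1 and 3. The Dtx1 call after LPS was lost (0 genes) with slide as a fixed block, the replicate block, only the 6 arrays compared, the stricter threshold, or without those 2 +/fl arrays. Resting Notch2 was also not called with only the 6 arrays compared (adjusted p 0.106) or median scaling (0.675), nor Dtx1 with median scaling (0.224), nor Hes1 with slide as a fixed block (0.0700), while resting Nrarp was called with median scaling (0.0465), the trend and robust variance model (0.0488) or slide as a fixed block (0.0378). For LPS in +/fl cells, median scaling ended the calls of Dtx1 (0.102), Notch2 (0.522) and Hes5 (0.551). Lfng, Ep300 and Myc were not called in resting cells with only the 6 arrays compared (0.0766 to 0.0876) or with median scaling (0.284 to 0.308). The cause was not tested. With the replicate block the Dtx1 difference was -1.10 (adjusted p 0.0518). The labels do not pair the samples. In their deviations from the group means, same-numbered arrays correlated between -0.0794 and 0.126. The 2 +/fl arrays that have the same number in their names correlated at 0.133. These values were not set against differently numbered arrays, so they do not decide whether samples were paired.

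Signs turned for small differences. For Notch1 the resting genotype difference was -0.023 with normexp and -0.18 to 0.29 when arrays were left out one at a time. Its LPS genotype difference was -0.22 with normexp, -0.038 with quantile normalization, -0.49 with median scaling, -0.090 with the deposited values, -0.17 with slide as a block, -0.0076 with array weights and -0.10 as the mean over probes, and -0.15 to 0.16 without single arrays. Its interaction was -0.26 to 0.21 without single arrays. The Nrarp LPS genotype difference was -0.89 with normexp, -0.78 with quantile normalization, -0.27 with median scaling, -0.89 with the deposited values, -0.43 with slide as a block and -0.17 to 0.72 without single arrays. For LPS in fl/fl cells Nrarp gave -0.83 to 0.056 without single arrays, and its interaction was -0.62 with normexp. Notch2 gave -0.21 after LPS with median scaling and 0.15 for the interaction with normexp, Rbpj -0.11 for LPS in fl/fl cells with median scaling, and Heyl -0.34 for LPS in fl/fl cells with normexp. The Dtx1 interaction was -0.52 with median scaling, -0.051 to 0.14 without single arrays, -0.094 without the 2 +/fl arrays that share a number and -0.13 without resting +/fl 1 and 3.

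Over all genes the calls ranged from 0 to 2226 in the resting comparison (1512 as reported), 0 to 2764 after LPS (278), 2352 to 11134 and 1435 to 11358 for LPS in fl/fl and +/fl cells (9521 and 9879), and 0 to 409 in the interaction (28), leaving aside the fit of single probes, which counts probes and not genes. Median scaling moved the median of all genes by -0.52 after LPS, -0.30 and 0.24 in the LPS responses of fl/fl and +/fl cells and -0.54 in the interaction. With it, 19.5% of resting calls, 11.3% of LPS genotype calls and 37.6% of calls for LPS in fl/fl cells were higher, against 52.6%, 52.9% and 54.4%, and quantile normalization gave 40.4% in the LPS genotypes. Hes1 and Nrarp lie near background after LPS, which limits their LPS values.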
